A study of Mus musculus with 6 samples.

Results

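The genes examined here act in homologous recombination, the Fanconi pathway and the repair and signalling of DNA breaks. They were chosen by name: every gene whose probe sets carried that symbol alone in the platform annotation, for symbols of the Rad series, the Fanc series from Fanca to Fancm, the Xrcc series, and Rad51ap1, Brca1, Brca2, Blm, Atm, Atr, Mre11a and Nbn. This gave 38 of the 18193 genes measured, and 86 of the 34945 probe sets with exactly 1 symbol. They were compared between C2C12 cells, a mouse myoblast line, that carried either a control GFPshRNA or a PRDM2 shRNA, each as a stable pool of transfected cells, so that neither is 1 clone. All 6 samples had spent 48 hours in a methyl cellulose suspension medium with 20% serum, which arrests these myoblasts in G0, and there were 3 arrays of each kind, named by the labels as biological replicates. The sources used here do not say whether the replicates came from separate transfections or cultures, so p-values measure only the spread between these samples, which may be technical.

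In homologous recombination, a broken end is resected by the Mre11a, Rad50 and Nbn complex, and a recombinase filament, loaded by Brca2 and acting with Brca1, searches for an intact copy of the sequence. The Fanconi proteins unhook crosslinks between DNA strands: a core complex attaches ubiquitin to Fancd2 and Fanci. Atm and Atr are the kinases that signal breaks and stalled replication forks, and Xrcc4, Xrcc5 and Xrcc6 join broken ends without a template. Many genes of the recombination and Fanconi pathways are known to be transcribed mostly in cells that replicate their DNA, whereas the end joining factors are made in resting cells too. The name rule also takes in genes with other tasks, among them Rad21, a subunit of the cohesin ring, Rad23b, which helps to recognise lesions for nucleotide excision repair, and Rad18, a ubiquitin ligase of lesion bypass.

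The arrays were of similar overall brightness, with median intensities of 10.6 to 12.1, and 55.1% to 58.2% of probe sets were below an intensity of 16. Control array 3 had a Gapdh 5' to 3' ratio of 0.0992, a sign of RNA or labelling quality, against 0.704 to 1.14 on the others. The Dap spike, added as poly-A RNA, read 43.1 and 42.3 on array 3 of the control and the knockdown and 160 to 350 on the other 4 arrays. Prdm2, the targeted gene, stood at 66.9% of the control at its representing probe set (log2 difference -0.51, limma adjusted p = 0.313), with overlapping groups. Its other probe sets stood at 51.3% and 120% (-0.75 and 0.1, limma adjusted p = 0.433 and 0.766 over all probe sets), so that 0 of the 3 passed. The myoblast markers Des and Myod1 were measured on every array, at 666 to 1111 and at 92.6 to 290. Ptprc and Pecam1, defining markers of leukocytes and endothelium, read at most 2.49 and 3.65, while Csf1r and Emcn, the brightest of those lists, read 37.9 to 150 and 28.8 to 74. Summed over the 5 markers in each list, leukocyte markers were 130 to 218 in the control and 68.3 to 135 in the knockdown, endothelial ones 41.2 to 89.6 and 43.9 to 71.4, epithelial ones 59.3 to 70.8 and 90.2 to 110, and fibroblast ones 236 to 543 and 733 to 865. In the knockdown 1 of 5 fibroblast markers and 1 of 5 epithelial ones rose, Pdgfrl by 2.01 and Epcam by 0.66, and 0 of the 5 leukocyte and 0 of the 5 endothelial markers passed. Of 6 myoblast markers 1 fell, 2 rose and 3 did not pass. With 3 arrays a group, precision was limited by their number.

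As a group these repair genes moved little between control and knockdown. The signal of Brca1, which acts with the recombinase, fell, 37 of the 38 genes did not pass the test, and 0 rose. The share that fell was 2.63%, against 2.19% of all genes, so that it is near the background, while 2.96% of all genes rose and 5.16% passed in either direction (limma adjusted p under 0.05 on log2(intensity + 16)). At an unadjusted p under 0.05, 5 were lower and 1 was higher, where 7.09% and 8.68% of all genes were. The median log2 difference of the 38 genes was -0.02, and that of all genes was 0. The differences ran from -0.61 to 0.66. The deposited intensities of the groups did not overlap for 8 genes that were lower in the knockdown, which is 21.1% of them against 8.72% of all genes. They did not overlap for 2 genes that were higher, or 5.26% against 12.4%.

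**Figure D1:**
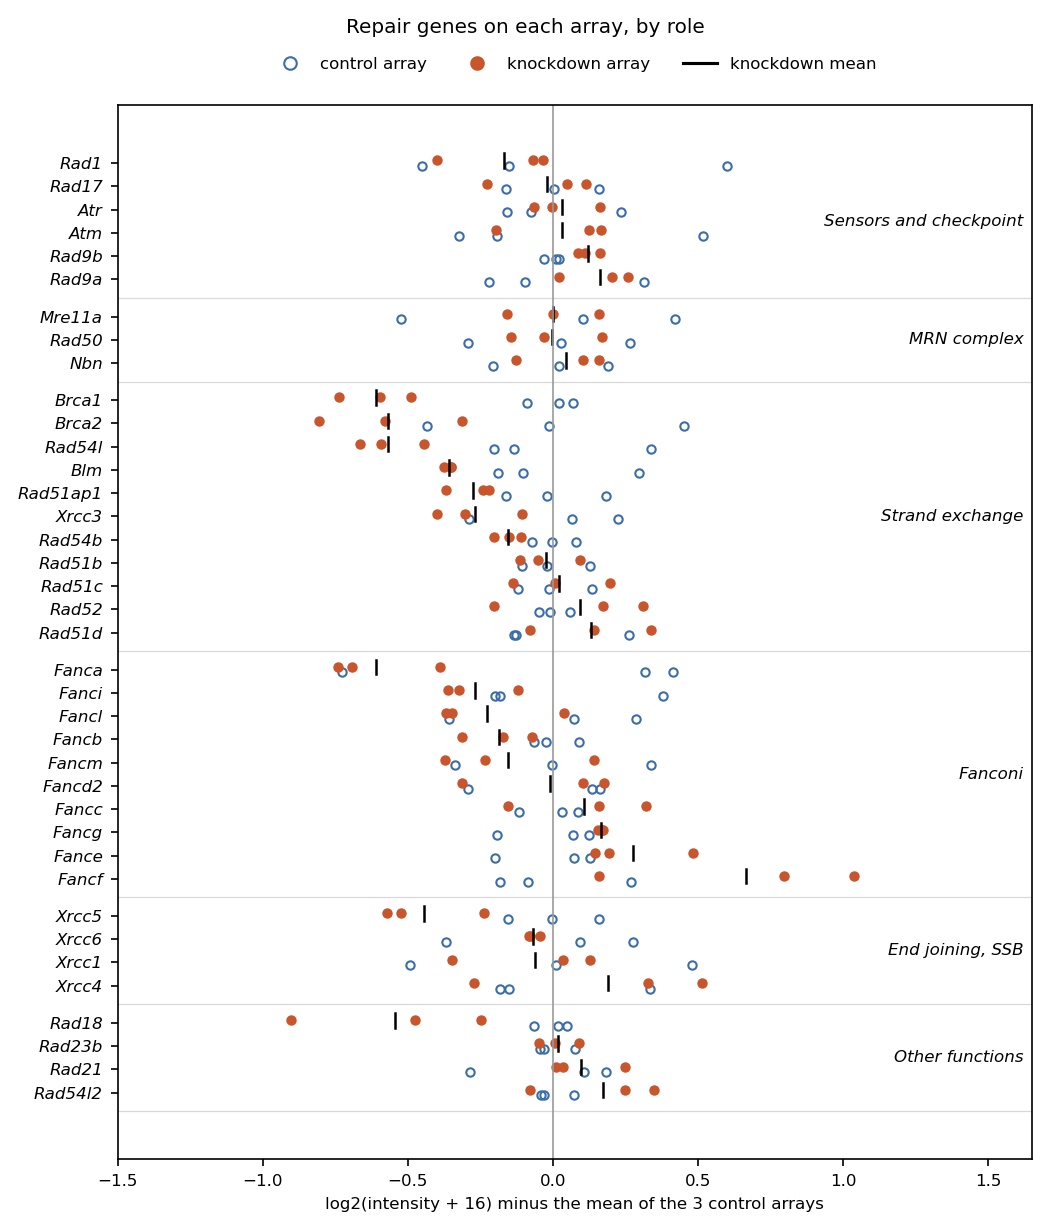
Each row is 1 of the 38 repair genes, grouped by role, and each point is 1 array's log2(intensity + 16) after quantile normalization, minus the mean of the 3 control arrays. Open points are control arrays, filled points are knockdown arrays and the bar is the knockdown mean; among the strand exchange genes 8 of 11 bars lie to the left of 0, with Brca1 at -0.61, while the MRN bars lie at 0 to 0.04.

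Much of the group was dim. In both groups the mean intensity of 12 of the 38 representing probe sets was under 16, the value added before the logarithm, so that their fold changes are understated. For 12 of the 38 genes this held at every probe set. Of the 24 genes with a mean intensity of 16 or more over the 6 arrays, 0 passed, where 3.43% of all 10553 genes of that intensity fell and 4.48% rose. At an unadjusted p under 0.05, 2 of the 24 were lower and 1 was higher, against 1103 and 1317 of the 10553, and the median difference was 0.02. The 95% interval of the log2 difference lay within 1 of 0 in either direction for 21 of these 24, and reached further for Brca2, Fanca and Fancf. Of the 14 dimmer genes 1 fell, or 7.14%, and the median was -0.17, against 0.484% and -0.01 for the 7640 dim genes of the whole table. The groups did not overlap for 6 of these 14 that were lower, or 42.9% against 7.97% of the dim genes. They did not overlap for 2 that were higher, or 14.3% against 7.09%. Among the 24 brighter genes the groups lay apart for 2 that were lower, or 8.33% against 9.27%, and for 0 that were higher, against 16.2%. In bulk samples, fewer cells that express a gene and less RNA per cell cannot be told apart, here and below.

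The sensors of breaks and stalled forks did not pass, and their groups mostly overlapped. Atr read 69.4, 68.4 and 77 on the control arrays and 88.8, 75.2 and 72 on the knockdown arrays, with a log2 difference of 0.03 (95% interval -0.29 to 0.35). Atm, the kinase of the break response, read 26.6, 58.7 and 21.1 and then 26.8, 39.4 and 39.8, and 1 control array was the highest of the 6. Its other probe set read 20.3, 25.5 and 13.2 in the control and 27.4, 27.3 and 30.5 in the knockdown, where the groups did not overlap (log2 difference 0.33, limma adjusted p = 0.297 over all probe sets). Rad17, which loads the checkpoint clamp, and the clamp subunits Rad1 and Rad9a differed by -0.02, -0.17 and 0.16. Rad9b was at 1.24 to 1.99 in the control and 2.75 to 3.78 in the knockdown, and differed by 0.12. These readings were close to the floor of the table on all 6 arrays.

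The complex that first binds and trims broken ends had nearly equal means in both groups. Rad50, its coiled-coil subunit, read 72.7, 59 and 76 in the control and 72.6, 64.1 and 84.6 in the knockdown. Mre11a, the nuclease, read 43.2, 25.7 and 50.2 against 48.1, 35.6 and 40.3. Nbn, which connects the complex to Atm, read 58.2, 44.8 and 43.5 against 45.2, 55.6 and 58.9. All 3 overlapped between the groups, and their log2 differences were 0, 0 and 0.04 (SE 0.165, 0.239 and 0.139).

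The strand exchange genes, which build the recombinase filament and process what it forms, had mostly negative differences, of which 1 passed. Of 11 measured, 1 fell, 10 did not pass and 0 rose, 8 had a negative difference, and the median was -0.27. The groups did not overlap for 5 of them, all lower in the knockdown, which is 45.5% against 8.72% of all genes, and 0 were higher without overlap, against 12.4%. Of the 11, 6 had a mean intensity under 16 in both groups. Arrays 1 and 2 of both groups, where the spike was brighter, gave a median of -0.14, and the pair numbered 3 gave -0.51. That pair includes control array 3 with its low Gapdh ratio, whose part in the lower median was not tested. Without control array 3, Brca2, Rad54l, Blm and Rad51ap1 differed by -0.35, -0.4, -0.21 and -0.19, against -0.57, -0.57, -0.36 and -0.28 with all arrays. Brca1 was at -0.61 in both fits.

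Brca1 was the gene that passed. Its representing probe set, 1424629_at, read 18.8, 25.5 and 19.5 on the control arrays and 6.02, 8.61 and 10.1 on the knockdown arrays. Every knockdown array was below every control array, and the mean went from 21.3 ± 3.68 to 8.24 ± 2.06 (SD, n = 3 each), which is 38.7% of the control. The knockdown readings were all under 16, so this percentage rests on dim values. With a mean under 16 over the 6 arrays, Brca1 was the 1 of the 14 dimmer genes that fell. On the log2 scale with the offset it fell by 0.61 (SE 0.106, limma adjusted p = 0.024), by 0.66 in the arrays numbered 1 and 2 and by 0.51 in the pair numbered 3. Leaving out control array 1, 2 or 3 gave an adjusted p of 0.0655, 0.067 and 0.0654, and leaving out knockdown array 1 or 2 gave 0.0974 and 0.0815. Over the 18 alternatives that measured it the difference stayed negative, the adjusted p ran from 0.00948 to 0.211, and it was under 0.05 in 9. Among these 9, the probe set of highest mean intensity is again 1424629_at. It nearly repeats the main fit, at 0.0237, and adds no separate support. The alternative with a minimum mean intensity of 16 left Brca1 out. With an offset of 1 the log2 difference was -1.26.

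The 4 probe sets of Brca1 differed among themselves. Probe set 1451417_at read 3.48, 7.18 and 5.18 in the control and 1.32, 1.61 and 0.825 in the knockdown. Its groups did not overlap either, and its log2 difference of -0.29 did not pass (limma adjusted p = 0.243 over all probe sets). The other 2 were under 10 on every array and differed by -0.01 and 0.07. With the mean over the 4 probe sets in place of the brightest, the log2 difference of Brca1 was -0.21 and its adjusted p was 0.211.

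Rad51ap1, which encodes a protein that stimulates strand pairing by the recombinase, had a steep fall at 1 of its 4 probe sets. Probe set 1417938_at read 13.9, 17.6 and 17.8 in the control and 1.84, 2.31 and 1.94 in the knockdown. The control arrays lay close together and far above the knockdown arrays, with means of 16.5 ± 2.2 and 2.03 ± 0.246 (SD, n = 3 each). The knockdown readings are among the dim values of the table, so that no ratio is given. Its log2 difference with the offset was -0.85 (SE 0.0953, limma adjusted p = 0.00845 over all probe sets), and -2.52 with an offset of 1. Its adjusted p was under 0.05 in 16 of 18 alternatives and ran from 0.00121 to 0.0928, with 0.0928 in the 4 arrays numbered 1 and 2 and 0.0551 without knockdown array 1. Among these 16, the mean of a gene's probe sets and the probe set of highest mean intensity change only how genes are represented. They repeat the main probe set fit, at 0.00845, and could not have failed separately. The brightest probe set, 1448899_s_at, read 13.7, 18.6 and 19.6 and then 11.6, 12.8 and 9.48. These groups also lay apart, with a smaller log2 difference of -0.28 that did not pass in the gene table (limma adjusted p = 0.333). The remaining 2 probe sets were dim, at 0.3 to 2.26 and 6 to 8.81 over the 6 arrays, and differed by 0 and -0.03. All 4 are annotated to the same cDNA. Over all 86 probe sets of the 38 genes, these of Brca1 and Rad51ap1 were the 2 that fell, or 2.33%, against 1.29% of all probe sets, and 0 rose, against 1.81%, where 3.1% of all probe sets passed in either direction. At an unadjusted p under 0.05, 8 were lower and 3 higher, where 5.62% and 7.21% of all probe sets were. The groups lay apart for 16 lower probe sets, or 18.6% against 7.63%, and for 5 higher ones, or 5.81% against 10.6%.

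Rad54l, a motor that drives strand exchange, read 8.55, 7.58 and 16.4 in the control and 3.62, 0.921 and 1.75 in the knockdown. The groups did not overlap, and the means were 10.9 ± 4.86 and 2.1 ± 1.38 (SD, n = 3 each). Its log2 difference was -0.57 and did not pass (limma adjusted p = 0.127). It passed with an offset of 1, at -1.97 (limma adjusted p = 0.0305), and with a trended and robust variance, at -0.57 (limma adjusted p = 0.0256). Its other 3 probe sets were dim, at 0.5 to 5.43, 0.47 to 4.54 and 3.3 to 7.95 over the 6 arrays, and differed by -0.01, 0.07 and -0.01. Blm, the helicase that dissolves recombination intermediates, read 6.46, 8.06 and 14.3 against 3.6, 3.95 and 3.96, again without overlap (log2 difference -0.36, limma adjusted p = 0.283). Control array 3 was the highest array for both of these genes.

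Brca2, the loader of the recombinase, read 42.8, 31.8 and 56.8 in the control and 32.5, 25.5 and 18.1 in the knockdown. Here the groups overlapped, since control array 2 was below knockdown array 1. It differed by -0.57 on the log2 scale (SE 0.24, limma adjusted p = 0.322), with -0.22 in the arrays numbered 1 and 2 and -1.26 in the pair numbered 3. Rad54b, a relative of Rad54l, was at 3.08 to 5.16 in the control and 1.38 to 2.54 in the knockdown, and differed by -0.15. Of the recombinase paralogues, which help to build the filament, Rad51b, Rad51c and Rad51d differed by -0.02, 0.02 and 0.13 and Xrcc3 by -0.27, each with overlapping groups at the representing probe set. The dimmer probe set of Xrcc3 read 6.19, 8.24 and 9.44 in the control and 5.42, 4.59 and 3.27 in the knockdown, without overlap, and differed by -0.22. Among the dimmer probe sets of Rad51d, 1 was lower and 1 was higher in the knockdown without overlap (log2 differences -0.13 and 0.13). None of these passed. Rad52, an annealing protein, differed by 0.09.

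**Figure D2:**
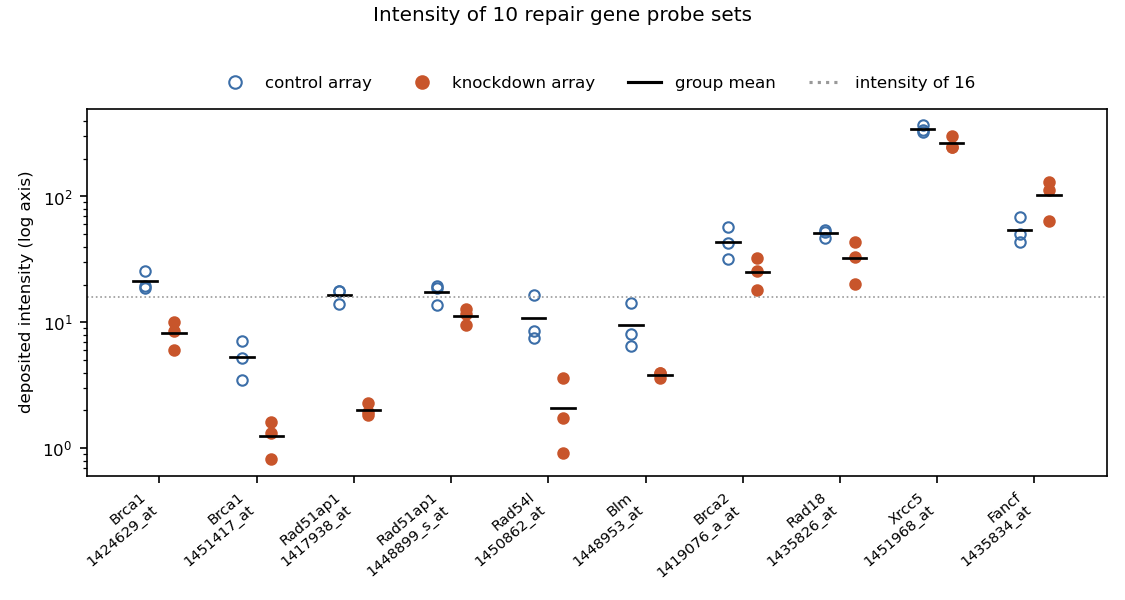
Deposited intensity, on a log axis, of 10 probe sets of 8 repair genes on the 3 control arrays (open points) and the 3 knockdown arrays (filled points), with group means as bars and a dotted line at an intensity of 16. The filled points of Rad51ap1 probe set 1417938_at lie at 1.84 to 2.31 and its open points at 13.9 to 17.8, while the groups of Brca2 and of Fancf overlap.

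The promoter windows of 4 strand exchange genes and of Fancf, the gene with the highest positive difference, are printed to show which letters they share. Brca1, Rad51ap1 and Rad54l each have a lower probe set without overlap, with log2 differences of -0.61, -0.85 and -0.57. Brca2 holds an E2F motif in a spelling that was searched, and the others hold none of the searched spellings. The sequences are from RefSeq on GRCm38.p6, from 250 bases before to 50 bases after the gene start, written along the gene. Brca1 lies at chr11:101551906-101552205, Rad51ap1 at chr6:126939538-126939837, Rad54l at chr4:116123640-116123939 and Fancf at chr7:51862218-51862517, all on the minus strand, and Brca2 at chr5:150522371-150522670 on the plus strand. Capitals mark matches, on either strand, to the CCAAT box, spelled CCAAT, or in Brca2 to an E2F motif.
Brca1: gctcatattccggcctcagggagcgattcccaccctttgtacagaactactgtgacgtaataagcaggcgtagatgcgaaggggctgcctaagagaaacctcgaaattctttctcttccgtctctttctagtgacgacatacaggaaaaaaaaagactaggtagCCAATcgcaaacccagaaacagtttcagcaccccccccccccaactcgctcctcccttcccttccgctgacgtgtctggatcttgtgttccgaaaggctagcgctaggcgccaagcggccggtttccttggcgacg
Rad51ap1: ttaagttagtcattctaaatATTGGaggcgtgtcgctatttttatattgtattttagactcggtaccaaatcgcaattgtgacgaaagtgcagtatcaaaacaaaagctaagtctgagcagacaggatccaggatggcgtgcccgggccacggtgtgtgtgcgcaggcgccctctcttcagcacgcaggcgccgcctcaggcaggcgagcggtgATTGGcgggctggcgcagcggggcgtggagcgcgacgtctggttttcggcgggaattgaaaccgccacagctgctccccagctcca
Rad54l: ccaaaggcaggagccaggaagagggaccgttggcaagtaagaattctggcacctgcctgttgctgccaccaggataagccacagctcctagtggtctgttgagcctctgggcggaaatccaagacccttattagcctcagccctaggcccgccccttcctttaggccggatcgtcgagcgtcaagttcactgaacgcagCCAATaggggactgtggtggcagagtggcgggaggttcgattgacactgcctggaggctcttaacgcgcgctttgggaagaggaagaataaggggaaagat
Brca2: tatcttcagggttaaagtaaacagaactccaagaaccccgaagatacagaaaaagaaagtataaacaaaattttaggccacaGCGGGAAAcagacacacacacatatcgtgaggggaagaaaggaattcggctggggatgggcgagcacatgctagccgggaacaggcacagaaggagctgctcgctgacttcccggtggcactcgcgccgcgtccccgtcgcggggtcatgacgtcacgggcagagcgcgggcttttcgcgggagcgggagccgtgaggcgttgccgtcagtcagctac
Fancf: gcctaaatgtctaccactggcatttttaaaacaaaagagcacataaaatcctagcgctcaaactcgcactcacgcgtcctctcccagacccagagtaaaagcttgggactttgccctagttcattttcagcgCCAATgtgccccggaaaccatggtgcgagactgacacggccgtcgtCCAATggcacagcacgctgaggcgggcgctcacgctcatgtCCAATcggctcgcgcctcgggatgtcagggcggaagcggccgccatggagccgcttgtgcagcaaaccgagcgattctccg
The CCAAT box is in these windows 1 time in Brca1, 2 times in Rad51ap1, 1 time in Rad54l, 3 times in Fancf and 0 times in Brca2. The E2F motif was searched as TTTCCCGC, TTTCGCGC, TTTGCCGC and TTTGGCGC, and the CHR element, a repressor site of cell cycle genes, as TTTGAA and TTCGAA, on both strands. Of the windows printed, Brca2 alone holds an E2F motif in these spellings, and 0 of the 5 hold a CHR element. Looser spellings of E2F sites were not searched. Windows were found for 30 of the 38 genes, 35 in all with alternative starts. A CCAAT box was in 60% of the 35, against 37.4% of the 32851 promoter windows of all genes, an E2F motif in 14.3% against 2.26%, and a CHR element in 5.71% against 19.2%. The genes with an E2F motif were Brca2, Fancg, Rad51c and Xrcc6, whose log2 differences of -0.57, 0.16, 0.02 and -0.07 did not pass. Among the 12 windows of strand exchange genes the shares were 66.7% for the CCAAT box, 25% for E2F and 8.33% for CHR. No motif's spelling lies inside another's, and a match is a description of letters only.

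Fanconi genes went both ways and none of the 10 passed. Their median was -0.08, with 6 negative and 4 positive differences, and 5 of the 10 were under an intensity of 16 in both groups. Fanca, a subunit of the core complex, had the most negative log2 difference of them and read 42.2, 11.8 and 34.3 in the control and 17.2, 10.8 and 11.1 in the knockdown. Control array 2 lay among the knockdown arrays, so that the log2 difference of -0.61 had a limma adjusted p of 0.429, and without that array it was -0.96 with a limma adjusted p of 0.0201. The other probe set of Fanca read 5.37 to 6.68 in the control and 5.55 to 5.83 in the knockdown, and differed by 0. Averaged over its probe sets, Fanca differed by -0.3 (limma adjusted p = 0.489). Fancf, which links parts of the core complex, read 68.4, 50.3 and 43.2 against 112, 130 and 64.4. Only control array 1 was above a knockdown array, and the log2 difference of 0.66, the highest of the 38, did not pass (SE 0.242, limma adjusted p = 0.238). Its other 2 probe sets differed by -0.09 and -0.18.

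Fancd2 and Fanci form the pair that receives ubiquitin. The brightest probe set of Fancd2 read 17.3, 9.27 and 16.4 in the control and 15.8, 8.51 and 17.7 in the knockdown, and differed by -0.01. At 2 dimmer probe sets the groups lay apart, with 5.98, 8.79 and 7.98 against 4.83, 4.52 and 2.91, and 5.66, 5.29 and 2.93 against 1.93, 1.57 and 2.6. These differed by -0.22 and -0.19 and did not pass (limma adjusted p = 0.398 and 0.49 over all probe sets). Fanci read 7.87, 8.45 and 17.7 against 8.75, 5.77 and 5.11, with a difference of -0.27 and overlapping groups. Fance, another core subunit, differed by 0.27 and Fancg by 0.16. Both probe sets of Fancg were higher in the knockdown without overlap, at 8.22 to 12.9 against 13.8 to 15.2 and at 4.56 to 10.2 against 11.9 to 13.6, and neither passed. Fancl, the ubiquitin ligase, differed by -0.23, Fancb by -0.19, Fancc by 0.11 and the translocase Fancm by -0.16.

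Of the 4 genes for end joining and strand break repair, none passed. Xrcc5, which encodes Ku80 of the ring that clamps broken ends, read 367, 327 and 339 in the control and 247, 302 and 249 in the knockdown. The groups lay apart, with means of 344 ± 20.4 and 266 ± 31.3 (SD, n = 3 each), a level 77.4% of that in the control. This log2 difference of -0.44 did not pass (SE 0.136, limma adjusted p = 0.151), except with array weights (-0.48, limma adjusted p = 0.04). Its partner Xrcc6, Ku70, read 97.9, 70.1 and 95.8 against 88.4, 88.1 and 87.3 and differed by -0.07, with the knockdown arrays inside the range of the control arrays. Xrcc4, which supports the ligase of end joining, differed by 0.19, and Xrcc1, the scaffold of single-strand break repair, by -0.06.

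Among genes of other tasks, Rad18 read 52.7, 53.8 and 47 in the control and 33.1, 43.2 and 20.3 in the knockdown. The groups did not overlap, and the log2 difference of -0.54 did not pass (SE 0.171, limma adjusted p = 0.167). All 4 of its probe sets had a negative difference, from -0.16 to -0.54, and with their mean in place of the brightest the difference was -0.37 (limma adjusted p = 0.0408). The cohesin gene Rad21 and the excision repair gene Rad23b, at 443 to 810 and 493 to 673 on the 6 arrays, differed by 0.1 and 0.02. Rad54l2, named for its likeness to Rad54l, differed by 0.17. Of the 29 genes with more than 1 probe set, 13 had the same sign of difference at every probe set.

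The other genes of these pathways were taken from 4 lists by function. Of 94 measured, 2 fell, or 2.13%, against 2.19% of all genes, 0 rose and 92 did not pass, with a median of -0.04. Fignl1, an ATPase that takes part in recombination, read 45.9, 49.1 and 36.9 in the control and 10, 18.8 and 6.13 in the knockdown, with no overlap. It fell by 1.16 (SE 0.162, limma adjusted p = 0.0102), and the adjusted p was 0.058 without knockdown array 1 and 0.067 in the 4 arrays numbered 1 and 2. Averaged over its probe sets, Fignl1 differed by -0.58 (limma adjusted p = 0.0198). Lig1, the DNA ligase that seals replicated strands, read 57.6, 59.7 and 79.5 against 35.4, 29.6 and 28. It fell by 0.85 (limma adjusted p = 0.0462), and the adjusted p rose to 0.0966 when control array 1 was left out and to 0.12, 0.147 and 0.163 when knockdown array 1, 2 or 3 was.

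Among the 36 recombination partners 1 fell, or 2.78%, with a median of -0.07. Among the 17 end joining partners 1 fell, or 5.88%, with a median of -0.02, where 2.19% of all genes fell. Aptx, of the end joining list, was higher without overlap and differed by 0.51 (limma adjusted p = 0.0816). Among the 25 genes of break signalling 0 passed, with a median of -0.09. In these 3 lists, 19.4%, 11.8% and 16% were lower without overlap, against 8.72% of all genes. Higher without overlap were 2.78%, 11.8% and 4%, against 12.4%. At an unadjusted p under 0.05, 3 of these 25 were lower and 0 higher, where 7.09% and 8.68% of all genes were. Among the 16 Fanconi partners 0 passed and the median was 0.11. By the same unadjusted threshold 4 of the 16 were higher and 1 was lower, and the groups did not overlap for 7 that were higher, or 43.8% against 12.4% of all genes, and for 3 that were lower, or 18.8% against 8.72%. The 1 lower gene by the unadjusted threshold was Ube2t, the ubiquitin-conjugating enzyme of the Fanconi pathway. It was at 38% of the control and differed by -0.64 (limma adjusted p = 0.0725). The 4 higher genes were Mad2l2, Cenpx, Wdr48 and Ercc1, at 169%, 171%, 142% and 144% of the control. They differed by 0.57, 0.53, 0.38 and 0.36 (limma adjusted p = 0.121, 0.153, 0.266 and 0.259).

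Genes of proliferation were measured on the same arrays for reference. Of 19 such genes 13 fell, 0 rose and 6 did not pass, with a median of -1.2. Mki67, the Ki-67 antigen, read 105, 92.7 and 175 in the control and 7.65, 11 and 6.16 in the knockdown (log2 difference -2.53, limma adjusted p = 0.00372). Top2a, a topoisomerase of dividing cells, fell by 1.99, Mcm5, of the replicative helicase, by 1.73, and the cyclin Ccna2 by 1.31. Pcna, the sliding clamp of replication and repair, differed by -0.3 (limma adjusted p = 0.58). Relative to the control mean, the median of the proliferation genes was -1.1 to -1.2 on the knockdown arrays and -0.13 to 0.25 on the control arrays. The median of the 38 repair genes was -0.04 to -0.11 and -0.12 to 0.13, so that control arrays spanned the whole range of knockdown arrays. No test of the difference between the lists was made, and the lists differ in brightness, with median intensities of 25.7 for the repair genes and 65.7 for the proliferation genes, while the offset compresses dim genes more. Myotube markers moved the other way: 7 of 8 rose, Myog by 3.78, and their summed intensity was 200 to 322 in the control and 5552 to 7316 in the knockdown. The part of fewer dividing cells or more differentiated cells in the fall of Brca1 was not tested.

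**Figure D3:**
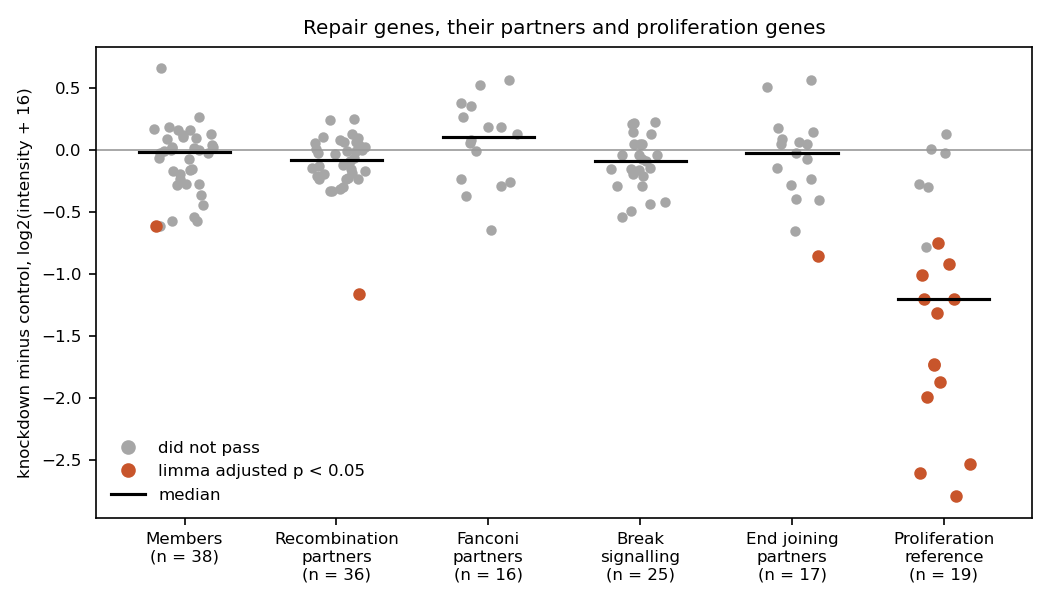
Each point is 1 gene's knockdown minus control difference on the log2(intensity + 16) scale, for the 38 repair genes, 4 lists of other genes of these pathways and 19 proliferation genes, with medians as bars and genes past a limma adjusted p of 0.05 filled in colour. Medians of the repair lists lie between -0.09 and 0.11, and that of the proliferation genes is at -1.2.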

How the data were processed

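Total RNA, 8 µg a sample, was labelled with biotin for Affymetrix arrays, per the labels' protocols. The authors deposited a linear intensity for every probe set of each array. The submitters' processing notes name GCOS and PLIER, and the sources used here do not give how the arrays were scaled. Of 45101 probe sets, 64 are controls, 34945 carry exactly 1 symbol, 932 several and 9160 none.

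From these values log2(intensity + 16) was computed and quantile normalized, since the spread of the arrays differed by 15.1%. Each gene was represented by its probe set of highest mean normalized log2 value over the 6 arrays. Groups were compared in R 4.3.3 with limma 3.58.1 (lmFit and eBayes, two-sided), with Benjamini-Hochberg adjustment over all 18193 genes or, for single probe sets, all 34945. The test was checked on simulated data. SDs are of deposited intensities. The members, gene lists and motifs were chosen with earlier results of these data known. Named are genes that passed, those with a passing probe set, the largest differences and leading members, partners that passed and reference genes; others were chosen after their values were seen.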

Additional observations from a re-analysis of the deposited data

How the results depend on the processing

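The median log2 difference of the 38 genes was -0.09 to 0.04 over 19 alternatives, and 0 members were higher past the threshold in any. The number of member genes lower was 0 to 1 when 1 array was left out, and Brca1, the gene called with all arrays, was replaced by Fanca without control array 2. It was 2 with an offset of 1, with a trended and robust variance and with array weights. The number was 0 with the replicate block, with the 4 arrays of higher spike signal and with the Gapdh ratio as covariate. It was also 0 with a minimum mean intensity of 16, which leaves Brca1 out. The number of member probe sets lower was 0 to 2 without 1 array, 1 with the replicate block or the Gapdh covariate, and 0 with the minimum intensity or the 4 arrays. Partner genes lower numbered 0 to 3 without 1 array, 1 with an offset of 1 or 64 or the replicate block, and 0 with the 4 arrays. Partner genes higher numbered 1 with no normalization, with array medians subtracted and with the spike level as a block, and 2 with array weights. All genes past the threshold numbered 444 to 815 without 1 array, 358 with the 4 arrays, 1615 with array weights and 712 with the replicate block. With the replicate block Brca1 had an adjusted p of 0.0502 and Lig1 of 0.0878. The correlations of same-numbered arrays' deviations were 0.34, 0.01 and 0.12, which does not show that the numbers pair the arrays, although both arrays numbered 3 have a low spike. With the spike level as a block Brca1 was at 0.031 and Lig1 at 0.0492. The sign of Atm turned to -0.2 with the 4 arrays and -0.12 with the Gapdh covariate, and without 1 array it was -0.13 to 0.29. Atr was -0.05 to 0.15 and Fancd2 -0.15 to 0.14 without 1 array, and Fancd2 was 0.07 with the Gapdh covariate. The causes were not tested. Representing each gene by its probe set of highest mean intensity, an alternative chosen after seeing the data, left the counts of members and partners as they were. Signal over background limits the dim members, whose fold changes the offset of 16 understates.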
